A study of Bos taurus with 20 samples.

Results

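The 100 genes described here are those whose share of the sequenced reads differed least between 20 pregnant cows in whole blood. They were chosen from raw counts as CPM, the count of a gene divided by the total count of the same cow and multiplied by 1000000. CPM is a share of the library and is not corrected for gene length. Of 37063 genes in the files, 23163 had a count in any cow and 4228 had a mean of at least 50 CPM. Ribosomal proteins, proteasome subunits, translation initiation factors, hnRNP and SR proteins were left out by their name prefix (RPL, RPS, PSM, EIF, HNRNP and SRSF, 171 genes). The 100 genes with the lowest SD/mean of CPM among the remaining 4057 are the members. Because SD/mean chose them, it is given as a description and not tested.

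All 20 cows belonged to 1 condition. Each was a recipient carrying a female beef-breed foetus, made in vitro from an Angus oocyte with X-sorted semen and transferred as a single blastocyst, and blood was drawn into Tempus RNA tubes at day 63 of gestation. The labels give no age and no batch for the cows. The methods of the paper describe the recipients as lactating dairy cows, a table there lists them as Angus of a wide range of ages, and parity and foetal diameters were also recorded but not used here. Calf birth weight (BW) at parturition, from 30 to 72.5 kg, was the only variable that the labels give, and cows are named here by that weight, so that the 37 kg cow is the dam of the 37 kg calf.

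Genes used in every cell for splicing, transport and protein turnover are often called housekeeping genes. In gene expression work a few of them, such as GAPDH of glycolysis and ACTB of the cytoskeleton, serve as references against which other genes are expressed. A reference has to vary less between animals than the genes it is used to scale. In blood this is a demanding requirement, because the proportions of neutrophils, monocytes, lymphocytes, platelets and red cell precursors differ between animals.

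Total counts were between 24632077 and 39892111 per cow (median 33412740). The counts of any 2 libraries differed by far more than sampling noise, with a lowest chi-square of 31.7 per degree of freedom among the 190 pairs. The libraries held leukocyte RNA, as all neutrophil, monocyte, T cell, B cell and NK cell markers found were detected in every cow. HBB, the beta-globin gene, had a lowest value of 46.2 CPM, a median of 102.7 and a highest of 1068 in the 36 kg cow, and whether globin RNA was depleted is not stated in the sources used here. Among trophoblast genes, 4 were listed at 0 in all cows, and the symbol PAG1 in the gene table was not used as a trophoblast marker because it also names an adaptor of lymphocytes.

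Between cows, the SD/mean of the members was from 2.51% to 4.10%, with a median of 3.72%. The median over all 4228 genes was 8.38%, and the middle 50% of them lay between 6.48% and 11.5%. An SD estimated from 20 cows has a relative standard error of 16.2%, so that the SD/mean of the first member was 2.51 ± 0.41% (SE, n = 20) and that of the last was 4.10 ± 0.67%. Neighbours in the order therefore did not differ beyond this error, and the edge of the group was not sharp. Just inside it stood CAPZB, DPF2 and U2AF1 with 4.08%, 4.09% and 4.10%, and just outside it SPG7, YWHAZ and LUC7L2 with 4.10%, 4.11% and 4.12%. The ratio of the highest to the lowest cow was between 1.08 and 1.22 for the members, with a median of 1.15, against a median of 1.38 for all 4228 genes.

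At the median, counting error was a small part of this variation. Expected from the counts alone, SD/mean was between 0.255% and 2.38% for the members, with a median of 1.20%. For RBM23, the member with the lowest SD/mean, the expected value was 1.70% beside 2.51% measured. Counting error made up a median of 10.1% of the squared SD/mean of the members and 3.51% of that of all 4228 genes. With counting error taken off, the medians were 3.44% and 8.19%. For genes with few reads the share was larger, at most 52.4%, which was in ATXN1L, a transcriptional corepressor with a mean of 54.4 CPM and the fewest reads of the members. Of the 1901 genes between 50 and 100 CPM, 15 were members, compared with 29 of 1221 between 100 and 200 CPM, 45 of 799 between 200 and 500 CPM and 11 of 307 from 500 CPM on. The median SD/mean of these 4 classes was between 8.04% and 8.73%.

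**Figure D1:**
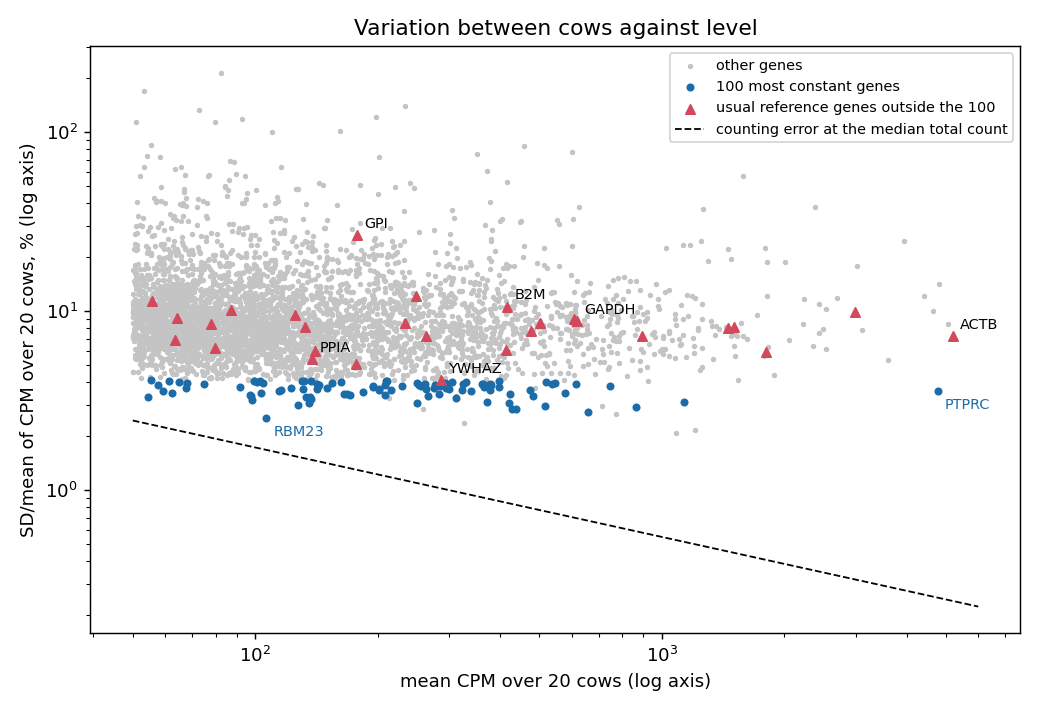
SD/mean of CPM over 20 cows against mean CPM (both log axes) for 4228 genes, with the 100 most constant genes in blue, usual reference genes outside them as red triangles and the counting error at the median total count as a dashed line. The members lie between 2.51% and 4.10%, above the counting error, GAPDH and ACTB lie at 8.78% and 7.23%, and grey points below the blue ones are genes of the families left out by name.

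By what their proteins are known for, assigned after the members were seen, 37 members act in RNA splicing, processing, export, decay or translation control. A further 15 act in transcription and chromatin, 13 in signalling, 12 in protein turnover, folding and synthesis, 11 in membrane traffic, 6 in the cytoskeleton and 1 in nuclear import, and 5 were left without a role. Since the rule kept every member between 2.51% and 4.10%, the medians of these groups, between 3.62% and 3.92% for those with a role and more than 1 gene, had to lie close together.

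RBM23 (Entrez 513711), an RNA-binding protein related to splicing factors, had the lowest SD/mean. Its lowest value was 102.8 CPM, its median 107 and its highest 111, and the highest cow exceeded the lowest by a factor of 1.08. SAFB2 (Entrez 100300349), a scaffold attachment factor that binds RNA and chromatin, was between 634 and 696 CPM with a median of 656 and an SD/mean of 2.73%. PRPF8 (Entrez 507371), the protein at the catalytic centre of the spliceosome, was between 408 and 455 CPM with a median of 442. THRAP3 (Entrez 505228), which acts in splicing and in transcription, was between 809.5 and 907 CPM with a median of 862. UPF1 (Entrez 532933), the helicase of nonsense-mediated mRNA decay, was between 238 and 266 CPM with a median of 250.4. The low cow differed from gene to gene: it was that of the 47.4 kg calf for RBM23, the 45 kg calf for SAFB2, the 50 kg calf for THRAP3 and the 37 kg calf for PRPF8 and UPF1.

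The other members of this group included proteins of most steps of splicing. SF1, which binds the branch point, had an SD/mean of 3.90%, and U2AF1, which binds the end of the intron, had 4.10%. SF3A1 and SF3B3 of the U2 particle had 3.66% and 3.85%. The helicases DHX8, DDX23 and DHX9 had 3.70%, 3.78% and 3.86%, and CDC5L and SNW1, which join the active spliceosome, had 4.02% and 4.08%. PTBP1 and PTBP3, repressors of exon inclusion, had 3.42% and 3.98%. Of proteins that act on finished mRNA, PABPN1, the nuclear poly(A)-binding protein, was between 196 and 224 CPM with a median of 217, and CHTOP, an export factor, was between 128 and 145 CPM with a median of 137. RNPS1, of the exon junction complex, was 22nd by CPM but had the lowest SD/mean of all ranked genes when counts were scaled by TMM (trimmed mean of M-values) or by DESeq2 size factors.

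Among transcription and chromatin genes, BRD7 and BRD2 carry bromodomains, which bind acetylated histones. BRD7 was between 251 and 284 CPM with a median of 265, and BRD2 was between 528 and 612 CPM with a median of 585. Their SD/mean was 3.35% and 3.46%. SUPT5H and PAF1, elongation factors of RNA polymerase II, had 3.45% and 3.32%, and SUPT16H, a histone chaperone, had 3.75%. CHD4 and NCOR1, of repressor complexes, had 3.98% and 4.0%, and SMARCC2 and DPF2, subunits of the SWI/SNF remodelling complex, had 3.74% and 4.09%.

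In membrane traffic, RAB14 (Entrez 539180), a GTPase of endosomes and Golgi, was between 129 and 143 CPM with a median of 135. CLTC (Entrez 281080), the clathrin heavy chain, was between 401 and 442 CPM with a median of 421 and had an SD/mean of 3.08%. WASHC2A, of the complex that builds actin on endosomes, had 3.11%, and VAPA, which tethers the endoplasmic reticulum to other membranes, had 3.18%. RAB7A of late endosomes, ARF4, COPA of the COPI coat and AP3D1 of an adaptor complex had between 3.50% and 3.90%. In protein turnover, VCP, the ATPase that extracts ubiquitinated proteins, was between 266 and 315 CPM with a median of 296, and UBE4B and CUL4A, both of ubiquitin ligases, had an SD/mean of 3.22% and 3.54%, and UBE2Q1, a ubiquitin-conjugating enzyme, had 3.93%. MAPRE1 (Entrez 507845), which tracks the growing ends of microtubules, was between 121 and 134 CPM with a median of 127 and had 2.99%. CFDP2 (Entrez 286876), left without a role, was between 395 and 446 CPM with a median of 429.6 and had 2.83%.

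Signalling and cytoskeletal members included genes known from leukocytes. PTPRC (Entrez 407152), the phosphatase CD45 carried by nucleated blood cells, had the most reads of the members and was 4th of all genes in the files. Its lowest value was 4409 CPM in the 37 kg cow, its median 4762 and its highest 5079.9 in the 46 kg cow, with an SD/mean of 3.57 ± 0.58% (SE, n = 20). MSN (Entrez 540426), moesin, which links actin to the membrane of leukocytes, was between 1063 and 1209 CPM with a median of 1132 and had 3.08%. DOCK2, which drives lymphocyte migration, had 3.64%, PRKCB, a kinase of B cell receptor signalling, 4.06%, CD58, the ligand of CD2 on T cells, 3.93%, and PIK3R1, the regulatory subunit of PI3-kinase, 3.92%. YWHAB (Entrez 286863), a 14-3-3 protein that binds phosphorylated partners, was between 497 and 548 CPM with a median of 515 and had 2.96%.

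Markers of single blood cell types varied more. Of 35 such markers with a mean of at least 50 CPM, 1 had an SD/mean below the median of all genes. The median over the 35 markers was 20.6%. The summed CPM of a list had an SD/mean of 10.9% for T cells, 13.8% for neutrophils, 17.5% for B cells, 18% for monocytes, 19.9% for NK cells and 29.1% for platelets. From the sum of neutrophil markers, the lowest cow had 3864 CPM, the median was 5275 and the highest was 6353. The eosinophil list held 1 gene with reads, IL5RA, between 20.4 and 196 CPM, and the erythroid list was between 54.5 and 1111 CPM in sum. In whole blood, fewer cells of a type and less RNA per cell cannot be told apart, and the part of cell proportions in the variation of the members was not tested.

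**Figure D2:**
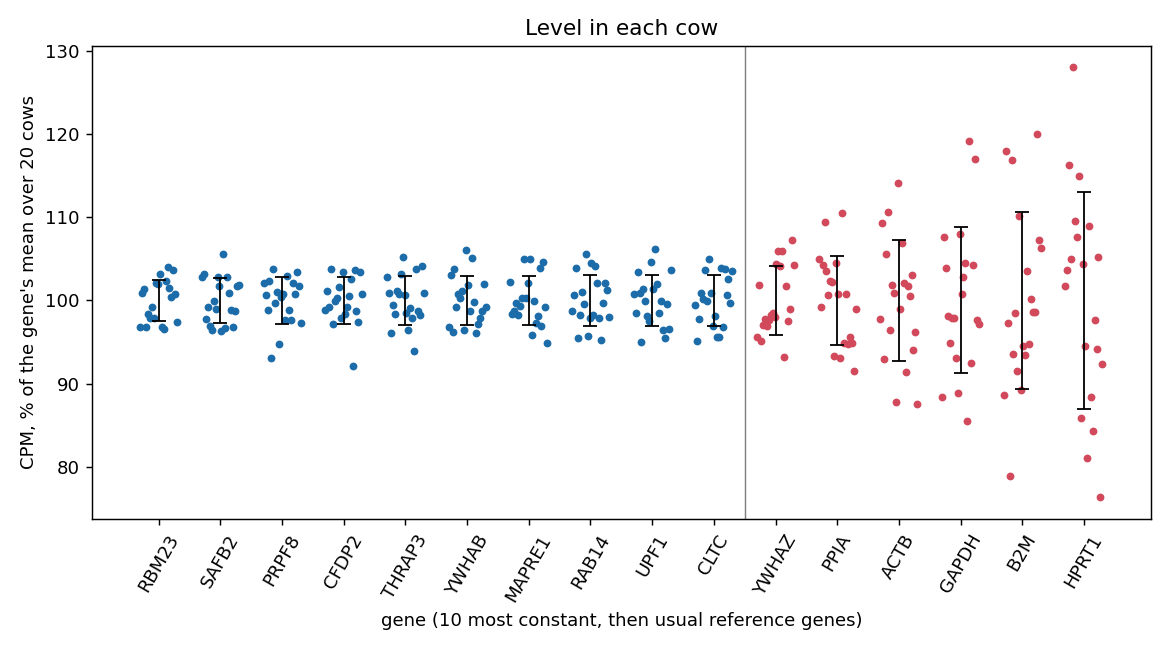
CPM in each of 20 cows as a percentage of the mean of the gene, for the 10 most constant genes (blue) and 6 usual reference genes (red). Each point is a cow, ordered within a gene by the weight of the calf, and the bars are 1 SD around the mean. The highest cow exceeds the lowest by a factor of 1.08 for RBM23, 1.3 for ACTB, 1.39 for GAPDH and 1.68 for HPRT1.

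The usual reference genes were placed beside the members. Of 33 genes used as references in quantitative PCR, 24 had a mean of at least 50 CPM. Of these, 0 were members, where 2.46% of all ranked genes were. With CPM, the scaling by which members were chosen, the rule places any ranked gene outside the group above its highest member. The SD/mean of all 24 was above that of the highest member. With TMM and with DESeq2 size factors this held for 22 of the 24. Their median was 8.07%, and 14 of the 24 were below the median of all 4228 genes. Those of the families RPL and RPS could not be members by the rule. YWHAZ, a 14-3-3 protein, was the most constant, between 267 and 308 CPM with a median of 282 and an SD/mean of 4.11 ± 0.67% (SE, n = 20), and it stood 2 places outside the group. It had 4.20% with TMM and 4.05% with DESeq2 size factors, and 22 and 28 members were above it. PPIA, cyclophilin A, had 5.40%, and UBB, a ubiquitin gene, had 5.91%. SDHA, TOP1 and ATP5F1B had between 6.0% and 6.19%.

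ACTB (Entrez 280979), which had the most reads of all genes, was between 4556 and 5933 CPM with a median of 5239.6 and an SD/mean of 7.23%. The lowest value was in the 72.5 kg cow and the highest in the 43 kg cow. GAPDH was between 528 and 736 CPM with a median of 605, the lowest in the 49.5 kg cow and the highest in the 50 kg cow. Its SD/mean was 8.78 ± 1.42% (SE, n = 20), which put it at rank 2311 of 4228 genes, past the middle of the order, while ACTB was at rank 1498. The ribosomal protein genes RPL19, RPL13A, RPS15A, RPS9 and RPLP0 had between 7.27% and 9.0%, and H3-3A, POLR2A, ACTG1, IPO8, PGK1 and PPIB between 7.27% and 9.5%. EEF1A1, the elongation factor of translation, had 9.92%, B2M, the light chain of MHC class I, 10.6%, and SUZ12, of a histone methyltransferase complex, 11.4%. Genes below the floor of 50 CPM included HPRT1 of purine salvage, between 35.0 and 58.7 CPM with an SD/mean of 13%, and TBP, GUSB and TFRC with between 8.48% and 10.6%. EIF2B2, ALAS1, CYC1 and UXT, also below it, had between 7.70% and 12.3%.

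Of 11 genes proposed as references for RNA sequencing of human tissues, 6 had a mean of at least 50 CPM, and 2 of them, RAB7A and VCP, were members with 3.62% and 3.73%. RAB7A was at rank 321 of the ranked genes with TMM and 340 with DESeq2 size factors, and VCP at rank 60 and 56. VPS29 and REEP5 had 6.92% and 8.49%, and CHMP2A had 10.2%. EMC7, SNRPD3, PSMB2 and PSMB4 were below the floor, with between 7.06% and 10.1%. GPI, an enzyme of glycolysis, was between 128 and 294 CPM with a median of 166 and an SD/mean of 26.6%, rank 4083 of 4228. The last of the 11, the cattle gene C3H1orf43, was listed at 0 in every cow. Reads of GAPDH, PPIA, ACTB, EEF1A1 and the ribosomal proteins may be shared with near-identical copies, and since the treatment of such reads is not stated, their values are uncertain.

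The families left out by the rule differed among themselves. Without the exclusion, 12 of their genes would have been among the lowest 100, namely 8 hnRNP genes, 3 initiation factors (EIF4H, EIF3CL and EIF4G1) and the proteasome subunit PSMB1. HNRNPK and HNRNPF, which bind nascent RNA, had 2.09% and 2.18%, below RBM23. HNRNPK was between 1044 and 1135 CPM with a median of 1081. The median SD/mean was 4.32% for the 18 hnRNP genes, 6.29% for the 10 SR proteins, 6.57% for the 38 initiation factors, 6.84% for the 25 proteasome genes, 7.72% for the 46 RPL genes and 8.58% for the 34 RPS genes. The most constant RPL gene was RPL23A with 4.51%, and the most constant SR protein was SRSF6 with 5.02%.

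Lists of 12 functional classes held 268 genes with a mean of at least 50 CPM, of which 29 (10.8%) were members, whereas members were 2.46% of all ranked genes. The lists were chosen with earlier results of these data known. Members were also 0.789% of genes between 50 and 100 CPM and 5.63% of those between 200 and 500 CPM. The lists were not matched for reads, and the contrast was not tested. The spliceosome list had 6 of 21 genes, the chromatin regulators 5 of 40, the vesicle coats and the RNA helicases with mRNA decay 4 of 27 and 4 of 33, ubiquitin conjugation 3 of 30, RAB GTPases 2 of 18 and RNA polymerase II with Mediator 2 of 24. The 14-3-3 proteins had 1 of 6, nuclear transport, through KPNB1 (importin beta), 1 of 21 and the serine-threonine phosphatases, through PPP2CA, 1 of 28. The V-ATPase (13 genes) and the CCT chaperonin (7 genes) had 0. The median SD/mean of the lists was between 5.72% for the spliceosome and 8.23% for the V-ATPase, compared with 8.38% for all genes, and 71 of the members were on none of the lists.

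**Figure D3:**
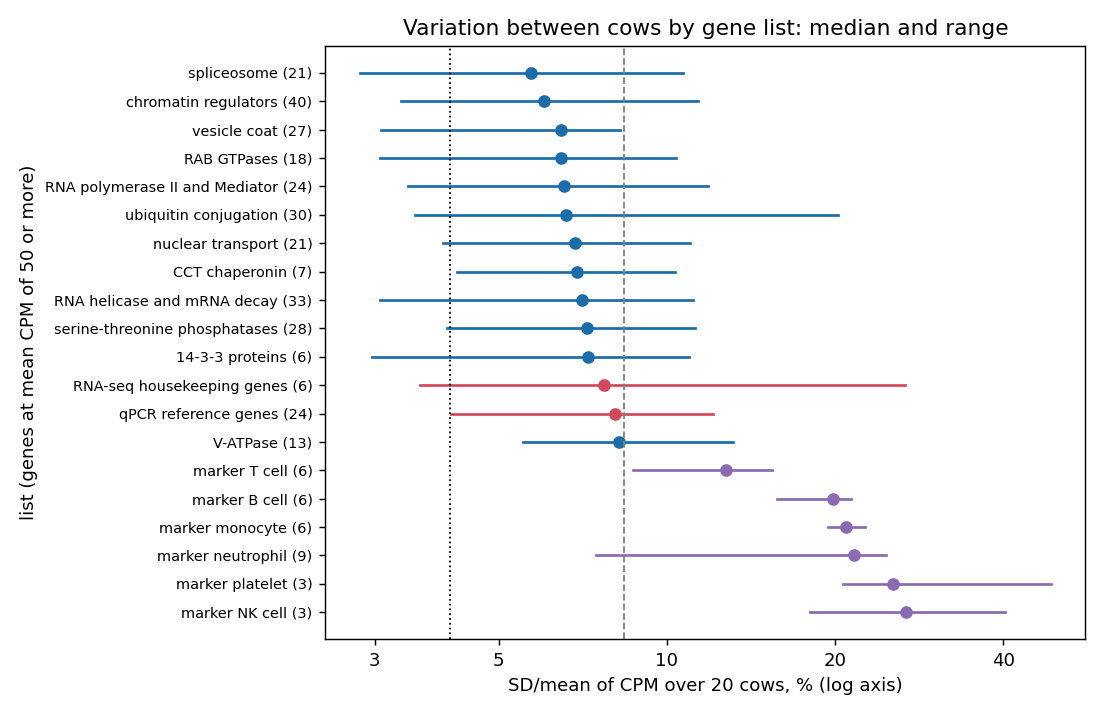
Median (point) and range (line) of SD/mean of CPM over 20 cows (log axis) for the genes of each list with a mean of at least 50 CPM, whose number stands in brackets. Functional lists are blue, usual reference genes red and blood cell markers violet, the dotted line is the highest member (4.10%) and the dashed line the median of 4228 genes (8.38%). The spliceosome has the lowest median, 5.72%, and the marker lists lie to the right.

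Across cows, the members deviated in part together and in part separately. In the 37 kg cow 25 of the 100 members had their lowest value, followed by 13 in the 50 kg cow and 10 in the 54 kg cow. The highest value of 12 members was in the 41.5 kg cow and that of 11 in the 36 kg cow. The cow of the 39 kg calf held neither the lowest nor the highest value of any member. The geometric mean of the 100 members was between 209.6 CPM, in the 37 kg cow, and 219.7 CPM, in the 36 kg cow. On the log2 scale its SD over cows was 0.016, where the median SD of a single member was 0.054 and independent variation of the members would give 0.0053. Relative to the geometric mean of the other members, CFDP2, YWHAB and PRPF8 varied least, with an SD of the log2 ratio of 0.034, 0.036 and 0.036. This SD was at most 0.064 for the members, compared with 0.056 for YWHAZ, 0.11 for ACTB, 0.13 for GAPDH and 0.16 for B2M. Its median over the members was 0.052, close to the 0.054 of a single member without the ratio. The comparison therefore largely repeats the SD/mean by which members were chosen, and nothing more is read from it.

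As references, the members gave nearly the scaling obtained from all genes. The SD over cows of the log2 difference from the TMM factor was 0.021 for the geometric mean of the 100 members, 0.024 for the 10 most constant, 0.032 for the 3 most constant and 0.046 for RBM23 alone. It was 0.023 for the total count. The members had been chosen with CPM, which is scaled by the total count, so that a small difference was fixed in part by the rule. For usual references it was 0.060 with YWHAZ alone, 0.076 with PPIA, 0.12 with ACTB, 0.14 with GAPDH, 0.16 with B2M and 0.19 with HPRT1. Between the most extreme cows, scaling by 1 gene would shift all genes by a factor of 1.46 with GAPDH, 1.35 with ACTB, 1.16 with YWHAZ and 1.11 with RBM23. The mean of the 100 members gave 1.05, but it is a mean of many genes chosen for low variation in the same cows and was not set against a mean of as many others. The mean of GAPDH and ACTB gave 0.11 and adding YWHAZ gave 0.078.

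**Figure D4:**
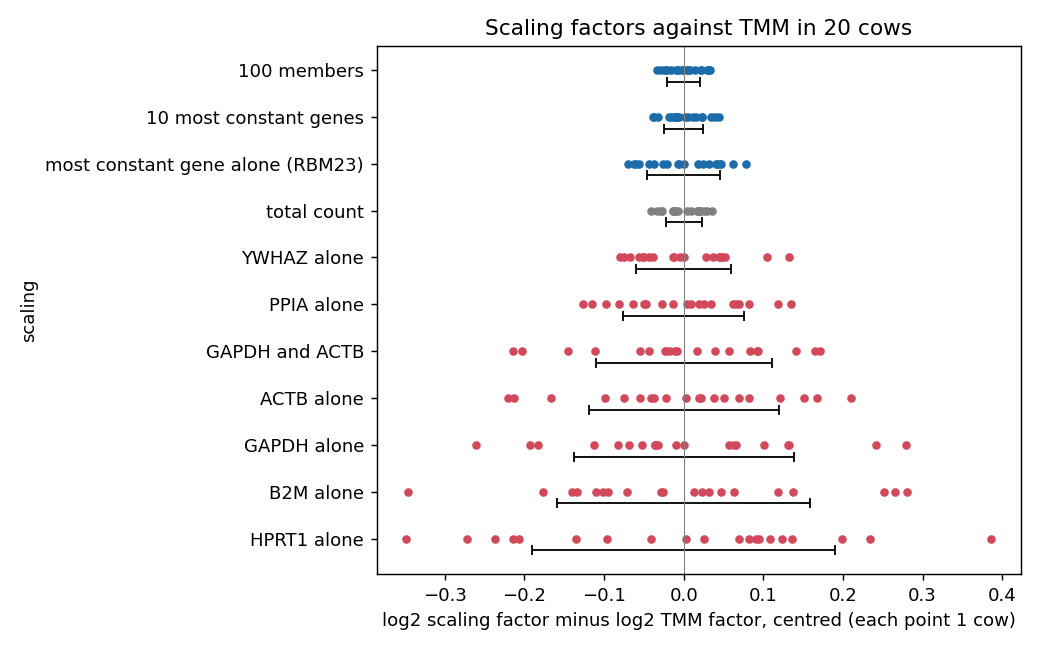
Difference of each scaling factor from the TMM factor in 20 cows, as log2 and centred, with each point a cow and the bar 1 SD to either side. The SD is 0.021 for the 100 members and 0.14 for GAPDH alone.

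The slope on calf BW was fitted in 19 cows over 16206 genes, each with 10 or more counts in 5 or more of these cows. The 72.5 kg cow was left out, a choice taken over from the methods of the study. All 100 members passed this filter. A low SD/mean over the same cows limits how large a slope can be, so that the slopes of the members are a description. With edgeR's quasi-likelihood test, 2 of the 100 members had an unadjusted p below 0.05, where 13.9% of all genes tested did, and 0 had a false discovery rate (FDR) below 0.05, as 0% of all genes did. None had an FDR below 0.1, where 0.315% of all genes did. With DESeq2 0 members had an FDR below 0.05, where 1.22% of the genes with an FDR did. The low count follows in part from the rule and from the test, which moves the spread of each gene towards that of genes of like abundance, and nothing is read from it.

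On the log2 scale the slopes of the members were between -0.0037 and 0.0044 per kg, with 54 positive and 46 negative and a median standard error of 0.0020. Both members below 0.05 had positive slopes, a split that depended on the scaling, with 1 positive and 1 negative with total counts and 2 of each after scaling by the members. PIK3R1, between 336 and 391 CPM with a median of 365, had 0.0044 per kg (standard error 0.0018, p = 0.0276, FDR of 0.29 with edgeR), and NBR1, a receptor of selective autophagy between 282 and 324 CPM with a median of 298, had 0.0040 (standard error 0.0019, p = 0.0495 with edgeR). ACIN1, of a splicing-dependent complex, followed with 0.0037 per kg. The most negative by p were PABPN1 with -0.0036, ZNF830, a splicing-associated zinc finger protein, with -0.0037, and WBP11, a splicing factor, with -0.0031. After adjustment over all genes no member passed the threshold. Over the 26 kg between the lightest and the heaviest of the 19 calves, the steepest slope corresponds to 0.11 on the log2 scale.

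The 95% interval of the slope stayed within 0.01 per kg of 0 on either side for all 100 members and within 0.005 for 32. For the 4228 genes the interval was taken as a fixed multiple of the standard error, close to that used for the members. Within 0.01 it stayed for 41.5% of them. The narrow intervals of the members follow from their choice by low SD/mean in the same cows. For RBM23 the slope was 0.0024 (standard error 0.0018) and for PTPRC 0.0024 (standard error 0.0017). Among usual reference genes, 6 of 43 tested had an unadjusted p below 0.05 and 0 an FDR below 0.05 with edgeR. That is 14% of them, near the 13.9% of all genes tested. The 6 were VPS29 with 0.0093 per kg (p = 0.00160), GPI with 0.024 (p = 0.0113), HPRT1 with -0.013 (p = 0.0140), PPIA with -0.0055 (p = 0.0277), SNRPD3 with -0.0068 (p = 0.0307) and RPL13A with -0.0064 (p = 0.0499). GAPDH had 0.0047 (standard error 0.0039) and ACTB -0.0022 (standard error 0.0032), with intervals that included 0. YWHAZ had 0.0035 (standard error 0.0019, p = 0.0775 with edgeR).

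Of the functional lists, no gene had an FDR below 0.05 for the slope with edgeR. At an unadjusted p below 0.05, where 6.78% of all genes were positive and 7.08% negative, the spliceosome list had 1 positive and 4 negative of 35 genes, chromatin regulators 4 and 1 of 43, and nuclear transport 2 and 8 of 42. The RNA helicase list had 3 and 2 of 34, vesicle coats 2 and 2 of 41, RNA polymerase II with Mediator 2 and 3 of 43, ubiquitin conjugation 2 and 1 of 42, and RAB GTPases 2 and 0 of 22. The phosphatases had 1 and 1 of 34, the 14-3-3 proteins 1 and 0 of 7, the CCT chaperonin 0 and 1 of 8 and the V-ATPase 0 and 0 of 16.

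**Figure D5:**
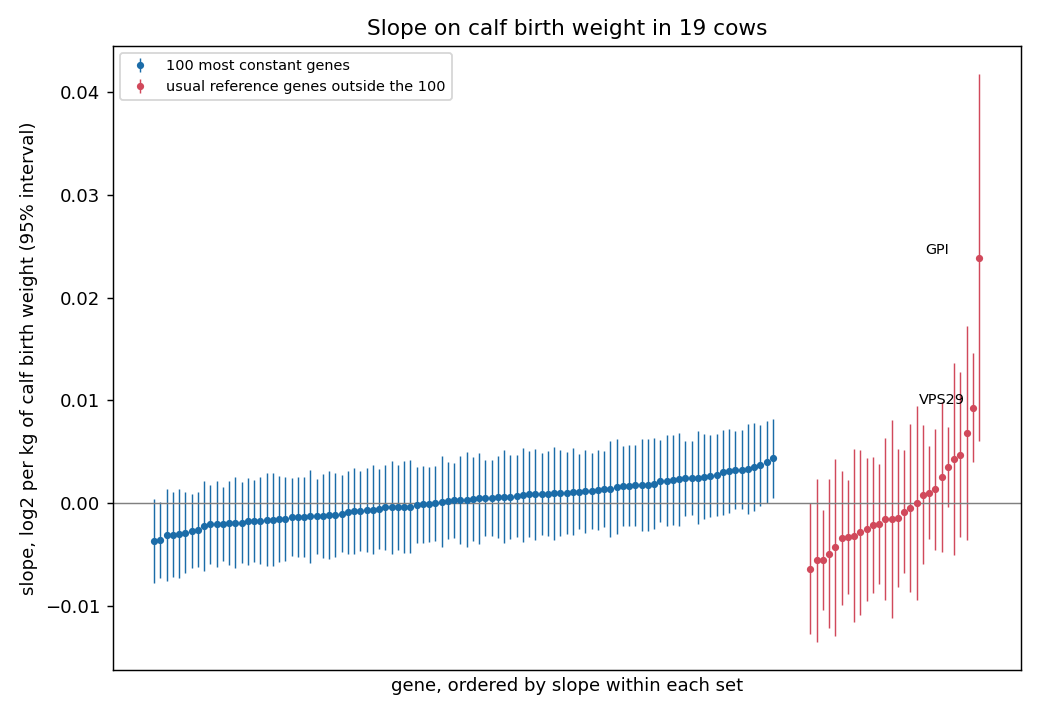
Slope of log2 expression per kg of calf BW in 19 cows (edgeR) with its 95% interval, for the 100 most constant genes (blue) and usual reference genes with a mean of at least 50 CPM outside them (red), each ordered by slope. The blue slopes are between -0.0037 and 0.0044 and the red ones reach 0.024 in GPI.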

How the data were processed

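Whole-blood RNA of 20 cows was sequenced as 1 library per cow. The sources differ on the library kit (Truseq-stranded mRNA in the paper, SMARTer Stranded in the labels). The authors checked reads with FastQC 0.11.9, trimmed them with Trimmomatic, aligned them with STAR 2.7.0b to the cattle genome and counted them with featureCounts of Subread 2.0.3. They deposited raw counts per Entrez identifier. How strand was set and how reads matching more than 1 gene were handled are not given in the sources used here. Symbols came from a RefSeq table of ARS-UCD2.0, in which all 37063 identifiers were found. The authors used another build, so no coordinates are given.

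CPM, SD/mean and counting error (1/expected count) were computed from the counts as deposited. The slope on BW used edgeR 4.0.16 (R 4.3.3) with TMM and Benjamini-Hochberg adjustment over all genes tested, with DESeq2 1.42.0 as an alternative. Standard errors were the slope over the square root of F. The ranking by SD/mean and the slope test were each run on simulated counts. There the constant genes were given a spread set apart from that of all others, a gap that the edge of the members lacks. The simulated ranking therefore cannot show how well members are separated from other genes, and no result of these runs is used here. Nothing in the sources states how cows were assigned to sequencing runs, and p-values measure the spread between cows. The members and lists were chosen with earlier results of these data known, and roles after the members were seen. Genes named were the 10 lowest by SD/mean, those with the most reads, those at the edge, the 3 smallest p in each direction, the reference lists, members of the functional lists and the lowest gene of each excluded prefix. Other members were named after their values were seen. Some genes that this rule names are not reported here. Promoter and protein features were not analysed here.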

Additional observations from a re-analysis of the deposited data

How the results depend on the processing

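Of the 100 members, 69 were again among the lowest 100 with TMM, 71 with DESeq2 size factors, 94 with a total that left out the 20 most abundant genes, 98 by SD of log2 CPM and 88 with counting error taken off. With a floor of 20 or 100 CPM 95 and 85 remained, and in 19 cows 93. By MAD/median 40 remained. Leaving out 1 cow kept between 75 and 98, the fewest without the 50 kg cow, and 66 remained in each of these selections. Under TMM and under DESeq2 size factors all 100 were in the lowest 25% of the 4228 genes. The number of PCR reference genes below the median of all genes was between 13 and 17 without 1 cow.

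Members with an unadjusted p below 0.05 for the slope were 2, and 4 after scaling by the members, 1 in all 20 cows and 6 with DESeq2. Scaling by GAPDH or ACTB alone, added after seeing the data, gave 0 and 0. Without 1 cow there were between 0 and 5, the lowest and the highest being without the 53 kg cow and the 55 kg cow. There were 4 without the 32 kg cow and 1 without the 35, 36, 39, 40, 41.5, 45 or 56 kg cow, which was negative without the 35 or the 56 kg cow. With DESeq2 5 were positive and 1 negative. No member had an FDR below 0.05 in any of these fits with edgeR or DESeq2. The slopes of NBR1 and ACIN1 became -0.00022 and -0.00062 with scaling by GAPDH. Over all genes, FDR below 0.05 was reached by 0 genes with edgeR, 189 with DESeq2, 147 with any count, 4 in all 20 cows and 1 with GAPDH, and by at most 34 without 1 cow, which was the 32 kg cow. The cause of these differences was not tested. No paired analysis was possible because all cows form 1 group. Depth limits the members with few reads, where counting error was up to 52.4% of the squared SD/mean.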

Other observations

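The study lists 1013 genes as changing with gestational age, from several data sets that include these cows. Of the 100 members, 21 are on that list, compared with 468 (11.1%) of the 4228 genes with a mean of at least 50 CPM. In 4 equal classes by SD/mean, from the most constant to the most variable, 16.4%, 10%, 9.56% and 8.33% of the genes are on it. The members concerned include SAFB2, CFDP2, THRAP3, MAPRE1, MSN, PTBP1 and PTPRC. The list was partly obtained from these cows and the overlap was not tested, so constancy at day 63 does not show constancy over gestation. MAPRE1 is also on the study's list of marker genes for calf BW. The study chose these markers by their importance in regression models of many genes, with the 72.5 kg cow among the samples. The slope of MAPRE1 alone, in 19 cows without that cow, was 0.00049 per kg on the log2 scale (standard error 0.0018, p = 0.79 with edgeR). The 72.5 kg cow had the lowest value of MAPRE1, 120.9 CPM. A slope of 1 gene without that cow does not test the choice made in the study.

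Genes used by most cells were in part listed at 0 in all 20 cows, namely USP7, ARF6, NUP62, CHD3 and C3H1orf43, which are the 5 such genes on the reference and functional lists. No stability can be given for them from these files. The markers CCR3 and ALOX15 were also listed at 0, although IL5RA of the same eosinophil list had reads in every cow.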
